A study of Rattus norvegicus with 8 samples.

Results

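The genes described here are the MAP kinases (MAPKs), the kinases above and below them, the Ras exchange factors and scaffolds that feed them, and the phosphatases and Sprouty and Spred proteins that restrain them. They were picked by gene symbol from the authors' deposited table (symbols beginning with Dusp and a digit, Spry, Spred, Mapk, Map2k, Map3k or Rasgr), a rule that uses no measured values, although the set was proposed with earlier results of these data known. The 75 symbols belong to 74 of the 32623 annotated genes, because 1 identifier carries both Dusp14 and Dusp14l1. These are 35 kinases, 27 negative regulators, 4 Ras exchange factors and 8 scaffolds or other proteins. Polyadenylated RNA came from wild-type SD rat hippocampal neuronal cultures on day 18 in vitro, as 4 libraries from cultures given a positive allosteric modulator (PAM) of the NMDA receptor and 4 from cultures given vehicle. A PAM is a compound that raises the response of this glutamate-gated calcium-permeable channel to its agonists. Which compound was used, at what dose and for how long is not stated in the labels. The cultures are brain cell cultures of mixed content, not sorted neurons, and the labels do not say whether replicates are separate cultures, so p-values measure only the spread between these libraries.

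MAPK pathways are relays of kinases. A MAP kinase kinase kinase phosphorylates a MAP kinase kinase, which phosphorylates a MAP kinase on both a threonine and a tyrosine, and the active MAP kinase then acts on other kinases and on transcription factors. The main families are the ERKs, the JNKs and the p38 kinases. In hippocampal neurons calcium entry through NMDA receptors activates Ras through exchange factors such as RASGRF1, and the ERK pathway that follows is a well-studied route from synapse to nucleus. Dual-specificity phosphatases (DUSPs) remove both phosphates, and Sprouty and Spred proteins act higher up, on Ras and Raf. Several of these inhibitors are themselves transcribed in response to ERK activity.

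Libraries held 2960406 to 4389430 counts, so a gene without counts may still stand at up to 0.683 to 1.01 CPM (counts scaled to library size, on the usual per-million scale; 3 counts of the total, counting error only). Markers of several cell types differed between the groups. Summed over the markers listed, astrocyte transcripts lay at 7729 to 9489 CPM in PAM libraries and 5260 to 5513 CPM in vehicle libraries, with 4 of 8 genes called higher. Excitatory neuron markers summed to 879 to 1005 CPM in PAM libraries and 1371 to 1623 CPM in vehicle libraries, with 3 of 6 tested genes called lower. Ependymal markers summed to 115 to 184 CPM with PAM and 31.6 to 47.9 CPM with vehicle, with 5 of 5 higher; oligodendrocyte lineage markers to 1350 to 1747 and 957 to 1069 CPM, with 5 of 10 higher and 1 lower; dividing-cell markers to 235 to 264 and 120 to 171 CPM, with 5 of 6 higher. Inhibitory neuron markers summed to 1058 to 1628 and 1482 to 1696 CPM (1 of 7 higher, 1 lower), endothelial and fibroblast markers to 149 to 250 and 103 to 158 CPM (3 of 6 higher), and microglial markers to 13.7 to 18.1 and 13.7 to 26.9 CPM (0 of 1 tested called by edgeR, with 0 at an unadjusted p under 0.05, 0 by DESeq2 and 0 by limma-voom). The part of these shifts in the values below was not tested, and in bulk RNA fewer cells of a type and less RNA per cell cannot be told apart. Some chosen markers were matched to no counted gene and are not in these sums. They were 4 of 10 endothelial and fibroblast, 3 of 7 microglial and 1 of 6 ependymal markers. PAM 3 and PAM 4 also stood apart from the other libraries in how counts varied with exonic length (for each doubling of length, log2 CPM shifted by -0.09 in PAM 3 and by -0.13 in PAM 4, and by 0.01 to 0.06 elsewhere). Values without that trend or without those libraries are given below for some genes only. Other genes shifted too. Without PAM 3 and PAM 4 the log2 fold change was -0.43 for Map2k1, -0.86 for Mapk8ip2 and -0.77 for Spred2. It was -0.24 for Dusp8 and -0.14 for Spred3.

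PAM cultures had less transcript of the ERK-pathway kinase Map2k1, of the Ras exchange factor Rasgrf1, of the JNK scaffold Mapk8ip2 and of the phosphatase genes Dusp5, Dusp4 and Dusp7 than vehicle cultures. The Dusp5 level was 2.84-fold lower with PAM, the other 5 were 1.5-fold to 1.72-fold lower, and all 6 were called in every one of the 17 alternatives run. Of the 74 genes, 66 had enough counts to be tested. Among these, 3 rose and 12 fell, or 22.7% (edgeR's quasi-likelihood test with Benjamini-Hochberg adjustment over all genes, adjusted p under 0.05), against 18.9% of all 11740 tested genes. The share that fell was 18.2%, against a background of 9.89%, and the share that rose was 4.55%, against 9%. The total share called is thus near the background. The median log2 fold change of PAM over vehicle was -0.20 in the 66 genes and 0.02 over all tested genes. The groups did not overlap for 27.3% of the 66 genes (4 higher and 14 lower with PAM), against 22.3% of all genes tested (10.3% higher and 12% lower). Calls in the set numbered 9, 8, 10 and 6 without vehicle 1, 2, 3 or 4, in place of 15, and those over all genes numbered 1725, 1527, 1668 and 1529 in the same fits, in place of 2218.

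**Figure D1:**
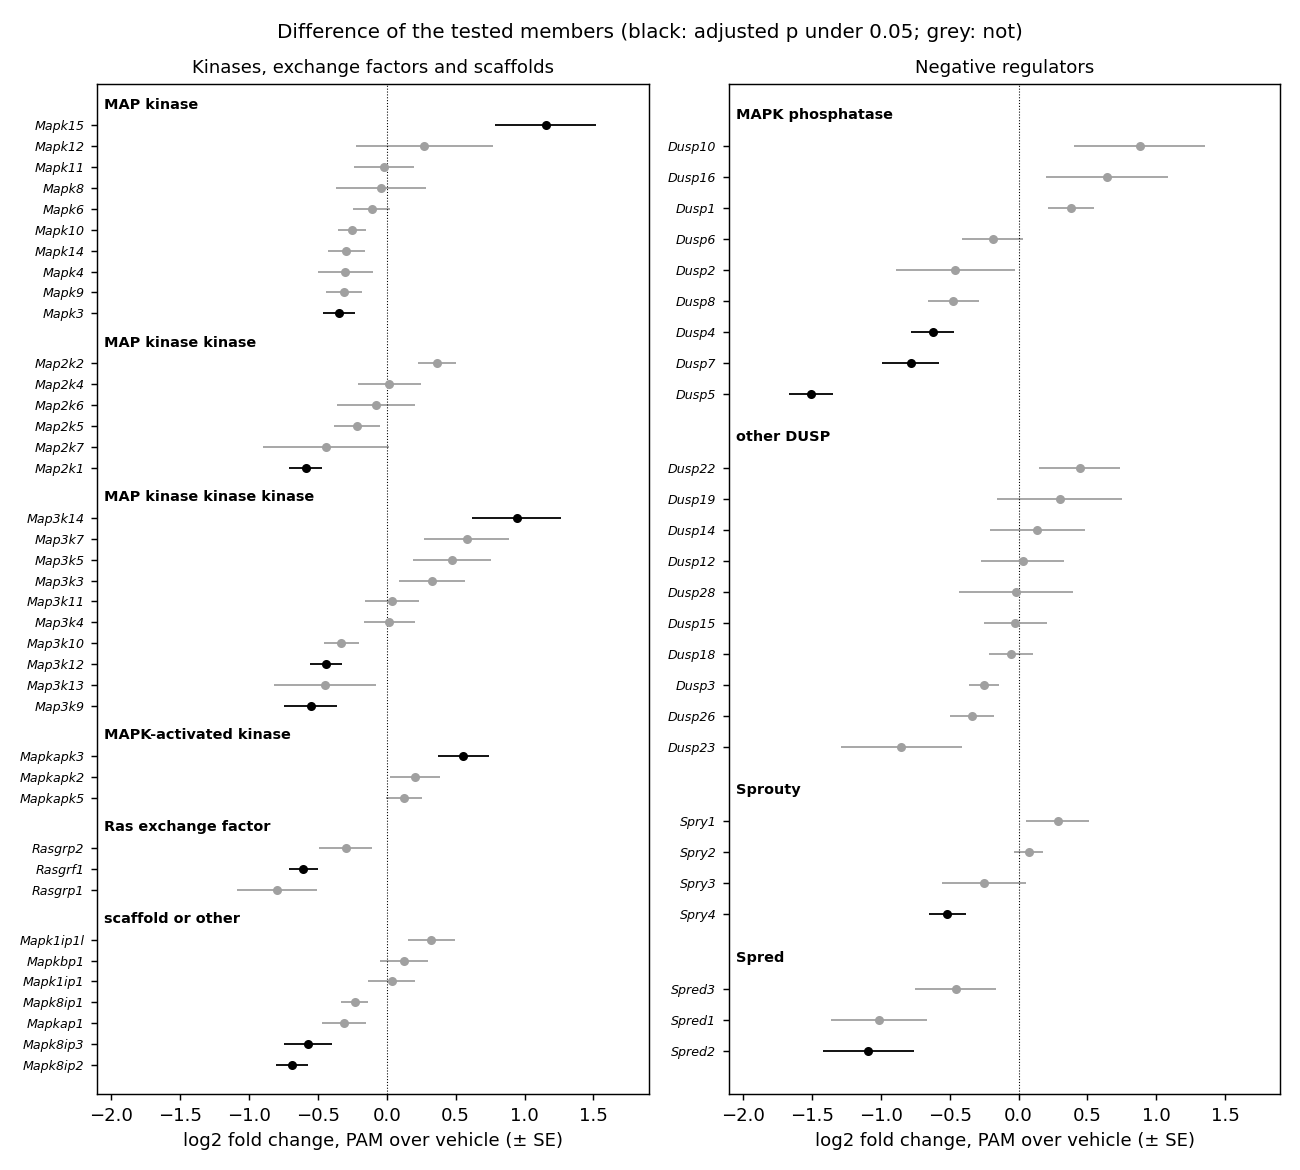
Log2 fold change of PAM over vehicle (x axis, ± SE, 4 libraries per group) for the tested genes, sorted by role; black points passed the test and grey points did not. The lowest value is that of Dusp5 at -1.51, and no negative regulator on the right has a black point above 0.

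Among the kinases 3 of 30 tested rose and 4 fell (23.3% called, against 18.9% of all tested genes), with a median log2 fold change of -0.06. Among the negative regulators 0 of 26 rose and 5 fell (19.2% called), with a median of -0.22. Both shares are near that of all tested genes. The negative regulators here include 10 DUSP genes outside the MAPK phosphatase subfamily, which have varied substrates and of which 0 were called. For the increases among the negative regulators, 1 gene had an unadjusted edgeR p under 0.05, and DESeq2 and limma-voom called 0 each. These counts describe the classes, and no test was made between them. Summed per kb of exon, the kinases reached 715 ± 36.6 CPM per kb with PAM and 815 ± 12.5 CPM per kb with vehicle (SD, n = 4 each). The negative regulators summed to 327 ± 17.3 CPM per kb with PAM and 386 ± 10.8 CPM per kb with vehicle. Both sums were lower in every PAM library than in any vehicle library. A sum is weighted by its most abundant genes. Mapk3 stood at 145 CPM per kb with PAM and 184 with vehicle, and Map2k1 at 81 and 122. Of the 30 kinase estimates 13 were above 0, so the sum does not describe a fall of the kinases in general. The ratio of the kinase sum to the negative regulator sum was 2.19 ± 0.17 with PAM and 2.11 ± 0.06 with vehicle, and the libraries of the groups overlapped. Before division by length, the 10 DUSP genes with varied substrates held 285 of the 794 CPM of negative regulators with PAM. With vehicle they held 322 of 975 CPM, so the sum and the ratio are not those of MAPK inhibitors alone.

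**Figure D2:**
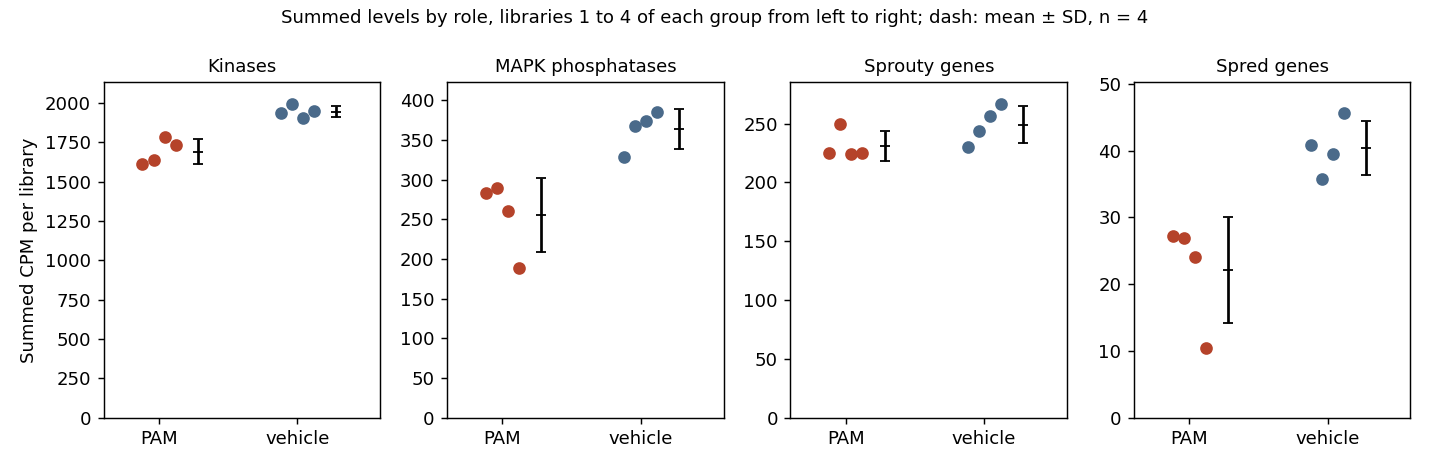
Summed CPM per library (y axis, from 0) of all kinases, the MAPK phosphatases, the Sprouty genes and the Spred genes, with points for libraries 1 to 4 of each group and a dash for the mean ± SD. Kinases, MAPK phosphatases and Spred genes lie lower in all 4 PAM libraries than in any vehicle library, while the Sprouty sums of 231 ± 12.5 CPM with PAM and 249 ± 15.8 CPM with vehicle overlap.

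The largest difference among these genes was that of Dusp5 (ENSRNOG00000014061; Rnor_6.0 chromosome 1, 274245184 to 274258595, plus strand), which encodes a nuclear phosphatase specific for the ERKs. Its transcript stood at 30.2, 29.6, 29.3 and 19.5 CPM in PAM 1 to 4, against 75.6, 70.5, 76.7 and 89 CPM in vehicle 1 to 4. The 3 first PAM libraries lay close together, PAM 4 was lower still, and the groups were far apart. The log2 fold change was -1.51 ± 0.16 (SE; edgeR, Benjamini-Hochberg adjusted p = 5.08e-06). Dusp4, whose product is another inducible nuclear phosphatase, had 78.1, 94.7, 68.4 and 48.7 CPM with PAM, against 100, 113, 120 and 117 CPM with vehicle. PAM 2 came within a few CPM of vehicle 1, and the groups did not overlap. The log2 fold change of Dusp4 was -0.62 ± 0.16 (edgeR, adjusted p = 0.00841). Dusp7, which encodes a cytoplasmic ERK phosphatase, stood at 31.6, 33.5, 29 and 13.7 CPM with PAM, against 45.1, 48.7, 45.1 and 49.2 CPM with vehicle. PAM 4 was again the lowest, at less than any other library, and the log2 fold change was -0.78 ± 0.21 (edgeR, adjusted p = 0.0123). With PAM 3 and PAM 4 left out, the log2 fold change was -0.37 for Dusp4 and -0.52 for Dusp7, and both were still called.

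The promoter of Dusp5 is shown because this gene fell most, beside those of Dusp7 and Spry4, which also fell, and that of Dusp1, which was not called. Each is the run of 250 bases before the annotated start in RefSeq (build GRCr8), 5′ to 3′ on the gene's strand, in the order chr1:262543524-262543773, plus strand for Dusp5; chr8:115887841-115888090, plus strand for Dusp7; chr18:30702547-30702796, minus strand for Spry4; and chr10:17184603-17184852, plus strand for Dusp1. Capitals mark matches, on either strand, to any of 8 motifs searched.
Dusp5 promoter: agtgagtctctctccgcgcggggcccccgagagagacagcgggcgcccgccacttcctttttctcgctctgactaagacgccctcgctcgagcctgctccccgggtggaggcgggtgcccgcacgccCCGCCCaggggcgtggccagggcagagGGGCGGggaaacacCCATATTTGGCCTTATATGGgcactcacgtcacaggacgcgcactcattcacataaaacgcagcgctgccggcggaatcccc
Dusp7 promoter: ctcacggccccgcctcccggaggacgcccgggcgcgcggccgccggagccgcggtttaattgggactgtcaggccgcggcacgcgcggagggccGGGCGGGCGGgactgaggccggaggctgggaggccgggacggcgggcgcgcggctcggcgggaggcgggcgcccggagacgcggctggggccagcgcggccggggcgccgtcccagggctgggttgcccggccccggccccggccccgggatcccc
Spry4 promoter: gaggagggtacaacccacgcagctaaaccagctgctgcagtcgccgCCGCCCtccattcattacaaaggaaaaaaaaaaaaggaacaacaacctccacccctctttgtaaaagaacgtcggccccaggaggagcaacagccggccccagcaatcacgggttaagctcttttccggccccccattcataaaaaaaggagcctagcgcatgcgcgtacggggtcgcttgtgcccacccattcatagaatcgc
Dusp1 promoter: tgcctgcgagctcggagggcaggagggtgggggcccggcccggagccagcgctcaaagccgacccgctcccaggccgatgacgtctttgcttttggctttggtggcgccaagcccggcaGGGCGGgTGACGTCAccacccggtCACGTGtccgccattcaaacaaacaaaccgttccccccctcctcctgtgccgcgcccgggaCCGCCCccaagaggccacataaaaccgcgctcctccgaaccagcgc
The Dusp5 promoter held a pair of adjacent matches to the CArG box, the sequence bound by serum response factor, at 82 to 73 and 72 to 63 bases before the start. A CArG box was found in 1.5% of the 33469 promoters of this length in the RefSeq table. Among the 65 genes of the set with an entry Dusp5 was the only one with a match. That is 1.54% of the 65, near the share of all promoters. The Dusp1 promoter held a full cAMP response element (CRE, TGACGTCA) at 124 to 117 bases before the start and an E-box (CACGTG) at 107 to 102. A CRE was present in 4 of the 65 genes (6.15%) and 1.59% of all promoters, and an E-box in 5 of the 65 (7.69%) and 5.59% of all. The GC box (GGGCGG) was in all of the 4 promoters shown, in 72.3% of the 65 and in 30.5% of all promoters. It overlapped itself once, in Dusp7, and no other motif. Matches to AP-1 (TGANTCA, 6.34% of all promoters), the EGR site (GCGTGGGCG, 0.478%), the ETS site (CCGGAAGT, 3.1%) and the MEF2 site (1.68%) were not in these 4 windows. A match is a run of letters and does not show binding, and no match says nothing about the factor.

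The other 6 tested MAPK phosphatase genes were not called. Dusp1, a nuclear phosphatase of JNK, p38 and ERK and a classical immediate early gene, had 65.2, 54.4, 82.1 and 49 CPM with PAM, against 38.7, 52.3, 51 and 50.8 CPM with vehicle. Its groups overlapped through PAM 4, and its log2 fold change was 0.38 ± 0.17 (edgeR, adjusted p = 0.121). Without PAM 4 it passed, at adjusted p = 0.0343 (edgeR; range over all alternatives 0.0343 to 0.378). Dusp6, the cytoplasmic ERK phosphatase, had 36, 24.9, 15.6 and 22.4 CPM with PAM, against 29.9, 30.3, 25 and 28.1 CPM with vehicle, a difference of -0.19 ± 0.22 on the log2 scale. PAM 1 was above and PAM 3 below every vehicle library. Dusp8, Dusp10 and Dusp16 encode phosphatases that act mainly on JNK and p38. Dusp8 averaged 26.3 ± 5.89 CPM with PAM and 36.8 ± 4.27 CPM with vehicle (SD, n = 4 each; log2 fold change -0.47 ± 0.19), while Dusp10 (0.88 ± 0.47) and Dusp16 (0.64 ± 0.44) had higher estimates from 6 to 33 counts per library. Dusp2, a nuclear phosphatase of ERK and p38, averaged 4.74 ± 1.29 CPM with PAM and 6.62 ± 3.93 CPM with vehicle, and its estimate of -0.46 ± 0.43 was near 0 without vehicle 3. Dusp9, another ERK phosphatase gene, had 0 to 7 counts per library and was not tested.

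Since some of these genes differed and others did not, the make-up of the phosphatase transcripts differed between the groups. Per kb of exon, Dusp5 made up 11.4%, 11.1%, 11.5% and 10.7% of the summed MAPK phosphatase level in PAM 1 to 4, against 25.7%, 21.1%, 22.4% and 25.5% in vehicle 1 to 4. Dusp1 made up 30.6%, 25.5%, 40.5% and 33.8% with PAM, against 16.5%, 19.6%, 18.7% and 18.2% with vehicle. Dusp1 thus had the highest share in all 4 PAM libraries, and Dusp5 had it in all 4 vehicle libraries. A share also rises when other genes of the sum fall, and Dusp1 itself was not called. The lead of Dusp5 over Dusp4 was narrow in vehicle 2 (21.1% and 20.6%) and in vehicle 3 (22.4% and 21.3%). Dusp4 held a share of 18.1% ± 2.49 with PAM and 20.8% ± 0.41 with vehicle, and Dusp8 13.4% ± 1.53 and 13.8% ± 0.95 (SD, n = 4 each). These shares describe the libraries, and no test was made on them.

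**Figure D3:**
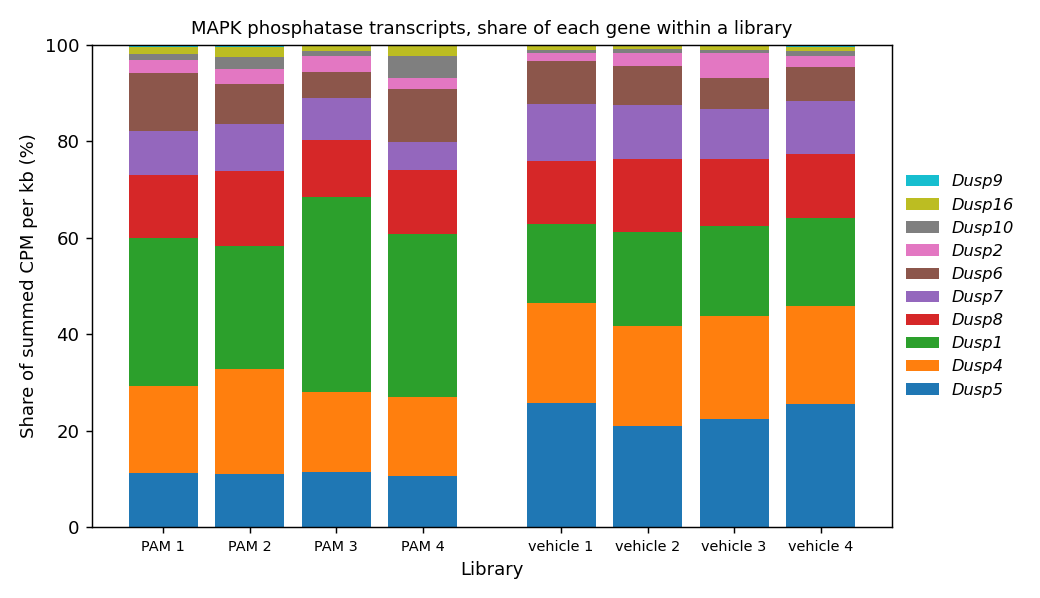
Share of each MAPK phosphatase gene in the summed CPM per kb of the 10 genes (y axis, %, stacked to 100) in each PAM library and each vehicle library. The lowest block, Dusp5, is 10.7% to 11.5% high in PAM libraries and 21.1% to 25.7% in vehicle libraries, and the Dusp1 block is the tallest in every PAM library.

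Of the 10 DUSP genes outside the MAPK phosphatase subfamily, a mixed group of small phosphatases with varied substrates, 0 were called by edgeR, DESeq2 or limma-voom, with 2 lower and 0 higher at an unadjusted edgeR p under 0.05. Their median log2 fold change was -0.02. Dusp3, an ERK and JNK phosphatase gene, averaged 121 ± 7.27 CPM with PAM and 144 ± 14.5 CPM with vehicle, and Dusp26, a brain-rich phosphatase gene, 57.7 ± 13.7 and 72.6 ± 8.14 CPM. The estimates of the other 8 ran from -0.85 for Dusp23 to 0.44 for Dusp22, with overlapping groups.

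Sprouty and Spred proteins are membrane-linked inhibitors of growth factor signalling to Ras and Raf. Spry4 fell and the other 3 Sprouty genes were not called. Spry4 had 56, 75.1, 55.3 and 62.7 CPM with PAM, against 79, 82, 96.7 and 99.6 CPM with vehicle, a log2 fold change of -0.52 ± 0.14 (edgeR, adjusted p = 0.0114). The groups came near each other at PAM 2 and vehicle 1 without overlap, and the call was lost without vehicle 4 (edgeR adjusted p = 0.0524; range over all alternatives 0.00288 to 0.0524). Spry2, the most abundant Sprouty transcript per length, averaged 143 ± 9.17 CPM with PAM and 136 ± 7.52 CPM with vehicle, a log2 fold change of 0.07 ± 0.10. Spry1 stood at 0.29 ± 0.23 and Spry3 at -0.25 ± 0.31 on the log2 scale.

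All 3 Spred genes had lower estimates with PAM, and Spred2 alone passed the test. Spred2 had 9.22, 11.1, 9.31 and 2.52 CPM with PAM, against 19.2, 11.8, 18.5 and 21 CPM with vehicle. PAM 2 and vehicle 2 nearly met, and PAM 4 rested on 7 counts. The log2 fold change of Spred2 was -1.09 ± 0.33 (edgeR, adjusted p = 0.0272), and the call was lost without vehicle 1, 3 or 4 (up to 0.0932). Spred1 had 6.45, 3.84, 5.48 and 3.24 CPM with PAM, against 8.84, 12.7, 6.89 and 10.4 CPM with vehicle. These groups did not overlap either, and Spred1 stood just outside the threshold at -1.01 ± 0.35 (edgeR, adjusted p = 0.0501). It passed without PAM 1 or vehicle 3, with DESeq2 and with the length trend removed (range of the adjusted p over all alternatives 0.0329 to 0.178). Spred3 averaged 9.37 ± 3.33 CPM with PAM and 13.1 ± 1.37 CPM with vehicle and was not called. Taking MAPK phosphatase, Sprouty and Spred genes as 1 set, 5 of 16 tested fell and 0 rose (1 higher at an unadjusted edgeR p under 0.05; 0 by DESeq2 and 0 by limma-voom), with a median log2 fold change of -0.46. Over all tested genes 9.89% fell and 9% rose.

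**Figure D4:**
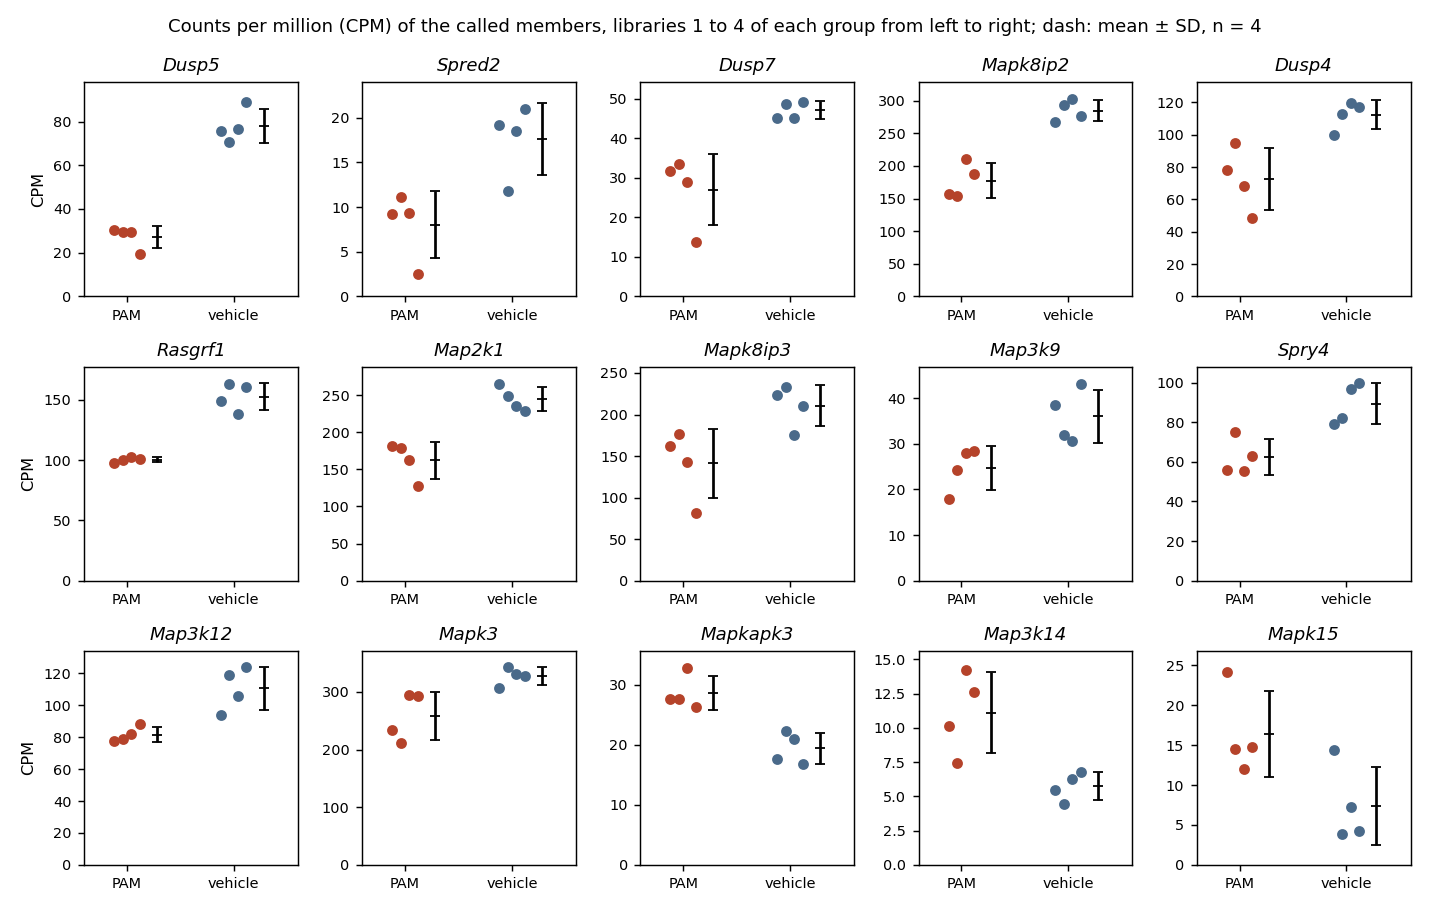
CPM (y axis, from 0) of the 15 genes that passed the test, with points for libraries 1 to 4 of each group from left to right and a dash for the mean ± SD. The 12 genes that fell come first and the 3 that rose (Mapkapk3, Map3k14 and Mapk15) last; Mapk8ip3 and Mapk15 are the ones whose groups overlap.

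In the ERK module itself, Map2k1, which encodes the ERK kinase MEK1, fell. Map2k1 (ENSRNOG00000010176; chromosome 8, 69134223 to 69164758, minus strand) had 181, 179, 163 and 127 CPM with PAM, against 265, 249, 235 and 228 CPM with vehicle. Every PAM library was well below every vehicle library, and the log2 fold change was -0.59 ± 0.12 (edgeR, adjusted p = 0.00174). Map2k2, the gene of the closely related kinase MEK2, had 130, 125, 185 and 175 CPM with PAM, against 115, 123, 132 and 105 CPM with vehicle. PAM 3 and PAM 4 were high and PAM 1 and PAM 2 lay within the vehicle range. The log2 fold change was 0.36 ± 0.14 (edgeR, adjusted p = 0.0692), and 0.11 without PAM 3 and PAM 4. With the length trend removed Map2k2 stood at 0.29 (edgeR, adjusted p = 0.136). It passed without PAM 1 (0.0448) or PAM 2 (0.0168), with upper-quartile scaling (0.0434) and without a filter on low counts (0.0359), and the edgeR adjusted p ran up to 0.547 over all alternatives. Per kb of exon the ratio of Map2k2 to Map2k1 was 0.933, 0.906, 1.48 and 1.79 in PAM 1 to 4, against 0.565, 0.643, 0.732 and 0.598 in vehicle 1 to 4. Map2k1 thus had the higher level per length in all vehicle libraries and in PAM 1 and PAM 2, and Map2k2 in PAM 3 and PAM 4. Map2k2 is the shorter gene, with 1541 exonic bases against 2004 for Map2k1. The part of the length trend of PAM 3 and PAM 4 in this ratio was not tested.

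Mapk3, the gene of ERK1, had 234, 211, 295 and 292 CPM with PAM, against 307, 344, 331 and 328 CPM with vehicle. Here PAM 3 and PAM 4 were close to vehicle 1, and PAM 1 and PAM 2 were lower. The log2 fold change was -0.34 ± 0.12 (edgeR, adjusted p = 0.0454). That call was lost in 6 of the 8 fits without 1 library (without PAM 1 or 2 or any 1 vehicle library; adjusted p up to 0.138) and with RLE scaling, while without PAM 3 and PAM 4 the value was -0.54.

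Upstream of this module, Rasgrf1 fell. It encodes a calcium- and calmodulin-activated exchange factor that loads Ras with GTP and binds NMDA receptors. Rasgrf1 (ENSRNOG00000014025; chromosome 8, 97277456 to 97405102, plus strand) had 98, 100, 102 and 101 CPM with PAM, against 149, 164, 138 and 160 CPM with vehicle. The PAM libraries agreed within a few CPM, and all lay far below the vehicle libraries (log2 fold change -0.60 ± 0.11; edgeR, adjusted p = 0.000515). Rasgrp1, a diacylglycerol-activated exchange factor gene, had 21.7, 20.9, 14 and 6.49 CPM with PAM, against 22.9, 27.5, 21.3 and 40.4 CPM with vehicle. Its groups overlapped and it was not called (-0.80 ± 0.29; edgeR, adjusted p = 0.0675), although the authors' deposited table lists it at an adjusted p of 0.0482. The DESeq2 fit run here called 2 of the 3 tested exchange factor genes lower, against 1 by edgeR. Rasgrp2 stood at -0.30 ± 0.19, and Rasgrp3 had 0 to 5 counts per library and was not tested.

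The JNK-interacting scaffold genes were among the most abundant of the set. Of these 3 genes 2 fell, where 9.89% of all tested genes fell, and no test was made on this count. These proteins hold JNK-pathway kinases together and link cargo to kinesin motors. Mapk8ip2 (ENSRNOG00000032828; chromosome 7, 130431213 to 130440703, plus strand), which encodes JIP2, had 156, 155, 211 and 188 CPM with PAM, against 267, 294, 302 and 277 CPM with vehicle. PAM 1 and PAM 2 were the lowest, no PAM library reached the vehicle range, and the log2 fold change was -0.68 ± 0.12 (edgeR, adjusted p = 0.000397). Mapk8ip3, the JIP3 gene, had 162, 177, 143 and 81.8 CPM with PAM, against 223, 233, 176 and 211 CPM with vehicle. PAM 2 and vehicle 3 were alike, PAM 4 was the lowest, and the log2 fold change of -0.57 ± 0.18 (edgeR, adjusted p = 0.0318) was -0.30 without PAM 3 and PAM 4. That call was lost without PAM 3 or vehicle 1, 2 or 4 (up to 0.0927) and with upper-quartile scaling. Mapk8ip1, the JIP1 gene and the transcript with the highest level per length of all 74, averaged 539 ± 43.6 CPM with PAM and 632 ± 39.6 CPM with vehicle and was not called (-0.23 ± 0.10; adjusted p = 0.114), except without PAM 3 and PAM 4 (-0.31; adjusted p = 0.00742; both by edgeR; range over all alternatives 0.00742 to 0.296). The other 4 tested genes of this group, Mapkap1, Mapkbp1, Mapk1ip1 and Mapk1ip1l, ranged from -0.31 to 0.32, and Map3k7cl had 0 to 6 counts per library.

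The JNK genes proper were not called: Mapk8, Mapk9 and Mapk10 had log2 fold changes of -0.04 ± 0.33, -0.31 ± 0.13 and -0.25 ± 0.10. Mapk10, the neuron-rich JNK3 gene, had 126, 143, 143 and 134 CPM with PAM, against 159, 161, 159 and 172 CPM with vehicle. Its groups did not overlap and its adjusted p was 0.0938 (edgeR). Of the 3 JNK genes, 2 had an unadjusted edgeR p under 0.05, and DESeq2 and limma-voom called 0. The p38 genes Mapk11, Mapk12 and Mapk14 stood at -0.02 ± 0.22, 0.27 ± 0.50 and -0.29 ± 0.13, and 0 of these 3 passed by edgeR, DESeq2 or limma-voom (1 at an unadjusted edgeR p under 0.05). The atypical MAP kinase genes Mapk4 and Mapk6 (-0.30 ± 0.20 and -0.11 ± 0.14) did not pass either.

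Mapk15, which encodes an atypical MAP kinase with a known part in the formation of cilia, rose. It had 24.2, 14.5, 12 and 14.8 CPM with PAM, against 14.3, 3.85, 7.2 and 4.21 CPM with vehicle, from 13 to 105 counts per library. PAM 1 was the highest, and vehicle 1 lay within the PAM range. The log2 fold change was 1.15 ± 0.37 (edgeR, adjusted p = 0.0349), and the call was lost without PAM 1 or vehicle 2, 3 or 4 (up to 0.139). The ependymal markers, also genes of ciliated cells, moved with it at a median log2 fold change of 1.88, and their part in the Mapk15 value was not tested.

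Among the MAP kinase kinase kinases, 2 mixed-lineage family genes fell and 1 other gene rose (30% of the 10 tested were called, against 18.9% of all tested genes). Map3k12 encodes DLK, a neuronal kinase that starts the JNK response to axon damage. It had 77.7, 79.1, 81.9 and 88 CPM with PAM, against 93.9, 119, 106 and 124 CPM with vehicle. The PAM libraries lay close together just under the lowest vehicle library, and the log2 fold change was -0.44 ± 0.12 (edgeR, adjusted p = 0.0139). The call was lost without vehicle 2 or 4 (up to 0.0666). Map3k9, the MLK1 gene, had 18, 24.3, 27.9 and 28.5 CPM with PAM, against 38.4, 31.9, 30.7 and 43 CPM with vehicle. Its groups did not overlap, and it passed the threshold only narrowly, at -0.55 ± 0.19 (edgeR, adjusted p = 0.04996). The call was lost in 7 of the 8 fits without 1 library (all but that without PAM 4; up to 0.173), with RLE or upper-quartile scaling, with the replicate block, with a minimum mean of 1 CPM and with the length trend removed (range over all alternatives 0.00604 to 0.173). Map3k10, the MLK2 gene, averaged 193 ± 37.7 CPM with PAM and 241 ± 7.55 CPM with vehicle, with groups that did not overlap, and was not called (adjusted p = 0.0755 by edgeR). Map3k11 (0.04 ± 0.20) and Map3k13 (-0.45 ± 0.37) of the same family did not pass.

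Map3k14 encodes NIK, the kinase of the non-canonical NF-kB pathway. It had 10.1, 7.46, 14.2 and 12.6 CPM with PAM, against 5.49, 4.4, 6.26 and 6.79 CPM with vehicle, from 16 to 52 counts per library. The groups did not overlap, though PAM 2 was near vehicle 4, and the log2 fold change was 0.94 ± 0.32 (edgeR, adjusted p = 0.0469). The call was lost in 7 of 8 fits without 1 library (all but that without PAM 2), with limma-voom, without a filter on low counts, with a minimum mean of 1 CPM, with the replicate block and without PAM 3 and PAM 4 (0.63; edgeR adjusted p = 0.266; range over all alternatives 0.0242 to 0.266). Mapkapk3, the gene of a kinase that p38 activates, had 27.7, 27.7, 32.9 and 26.3 CPM with PAM, against 17.7, 22.3, 21 and 16.8 CPM with vehicle. Every PAM library was above every vehicle library, at 0.56 ± 0.19 on the log2 scale (edgeR, adjusted p = 0.0437). That call was lost in 7 of 8 fits without 1 library (all but that without PAM 4; up to 0.135), with either other filter on low counts, with the replicate block and without PAM 3 and PAM 4. The related Mapkapk2 (0.21 ± 0.18) and Mapkapk5 (0.13 ± 0.13) were not called. Of the remaining MAP kinase kinase kinase genes, Map3k3, Map3k4, Map3k5 and Map3k7 ranged from 0.02 to 0.58 and did not pass, and Map3k1, Map3k2, Map3k6, Map3k20 and Map3k21 had 0 to 12 counts per library and were not tested. The MAP kinase kinase genes Map2k4, Map2k5, Map2k6 and Map2k7 ranged from -0.44 to 0.02 and did not pass.

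Levels can be set against each other per kb of exon. In vehicle libraries the order began with Mapk8ip1 at 211 ± 13.2, Mapk3 at 184 ± 8.6 and Map2k1 at 122 ± 8.18 CPM per kb (SD, n = 4), each clear of the next by more than its SD. Map2k2 (77.2 ± 7.62), Spry2 (75.2 ± 4.16) and Map3k10 (68.3 ± 2.13) came next, and Map2k2 and Spry2 did not differ beyond their spread. In PAM libraries Mapk8ip1 (180 ± 14.6) and Mapk3 (145 ± 23.6) kept the first places, whereas Map2k2 (99.6 ± 19.9), Map2k1 (81 ± 12.5) and Spry2 (79 ± 5.07) overlapped. Dusp5 stood at 11.2 CPM per kb with PAM and 32.2 with vehicle, Dusp1 at 32.4 and 24.9, and Dusp4 at 18.2 and 28.3.

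**Figure D5:**
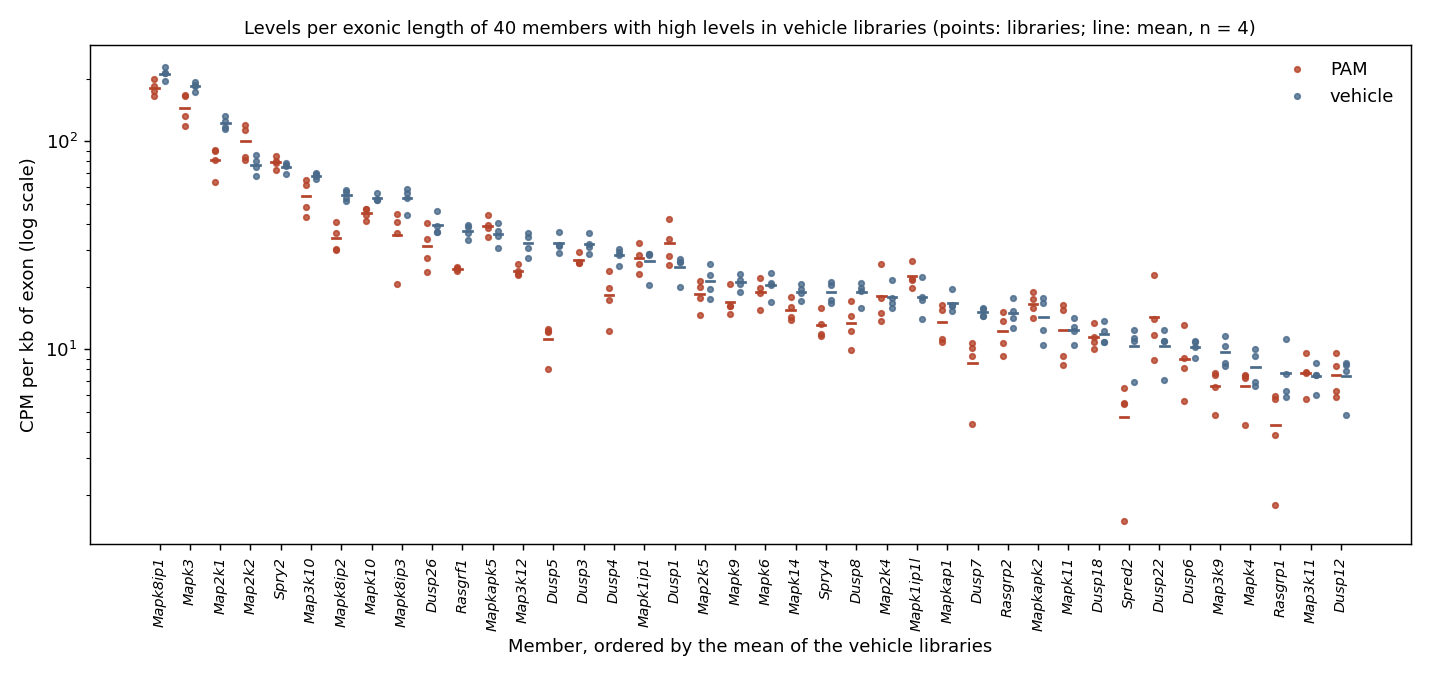
CPM per kb of exon (y axis, log scale) of 40 genes with high vehicle means, in falling order, with PAM points left of vehicle points for each gene and a line for the mean of 4 libraries. Dusp5, at 11.2 with PAM and 32.2 with vehicle, is the gene whose group means lie farthest apart among the first 20.

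The libraries of the PAM group varied more than those of the vehicle group. The median coefficient of variation over the 66 tested genes was 22.1% with PAM and 13% with vehicle, against 20.6% and 15.15% over all tested genes. It was 25.7% and 12.6% for the negative regulators and 19.8% and 13.2% for the kinases. PAM 4, which had the fewest counts, was the lowest PAM library for 24 of the 66 genes and for 6 of the 12 that fell, against 13 to 15 of the 66 for the other PAM libraries. The vehicle group was uneven too: vehicle 1 was its lowest library for 22 of the 66 and for 5 of the 12, against 11 to 18 of the 66 for the others. The genes that fell were also long, with a median exonic length of 3569 bases, against 2381 bases for the genes not called and 2457 bases for all tested genes. With the length trend removed, 3 rose and 13 fell, and without PAM 3 and PAM 4 the counts were 1 and 17.

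The authors' deposited table gave an adjusted p under 0.05 to 17 of the 74 genes, 3 higher and 14 lower with PAM. These included all 15 called here, and the other 2 were Spred1 (adjusted p of 0.0349 in the authors' deposited table) and Rasgrp1.

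Pathway genes outside the symbol rule were read from lists. Among 8 phosphatases of MAP kinases that are not DUSPs, 2 rose and 1 fell (37.5% called, against 18.9% of all tested genes, with a median log2 fold change of -0.16). These are the 3 tyrosine phosphatases that dock to MAP kinases. Ptpn5, the gene of the neuronal phosphatase STEP, which acts on ERK and p38, had 122, 113, 133 and 145 CPM with PAM, against 201, 212, 212 and 212 CPM with vehicle. It was lower in all PAM libraries (log2 fold change -0.71 ± 0.11; edgeR, adjusted p = 0.000128). Ptprr had 16.4, 11.5, 15.9 and 13.7 CPM with PAM, against 6.4, 9.08, 6.57 and 6.15 CPM with vehicle, and Ptpn7 had 10.4, 10.9, 20.3 and 13.7 CPM, against 7.32, 7.43, 4.7 and 6.15 CPM. Both were higher in all PAM libraries, at 1.02 ± 0.28 and 1.09 ± 0.31 (edgeR, adjusted p = 0.0141 and 0.0181). The Ptpn7 call was lost without PAM 3, vehicle 3 or vehicle 4 and without PAM 3 and PAM 4 (0.74; edgeR adjusted p = 0.141; range over all alternatives 0.00786 to 0.141). Thus the 3 genes of this docking family did not share a direction.

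Over all tested genes 9.89% fell and 9% rose, and 18.9% were called either way. The share called was 37.5% for Ras GTPase-activating genes, 16.7% for Ras, Raf and scaffold genes and 5.88% for receptor adaptors and exchange factors. It was 12.5% for effector kinases, 14.3% for MAP4K genes and 30.8% for ERK-responsive transcripts. No test was made on these shares. Of 8 tested Ras GTPase-activating genes, whose products switch Ras off, 3 fell and 0 rose (0 higher at an unadjusted edgeR p under 0.05, and 0 by DESeq2 or limma-voom). Rasal1 (-0.71 ± 0.22) and Dab2ip (-0.41 ± 0.13) were among those that fell, and each of these calls was lost in 6 of 8 fits without 1 library: Rasal1 without PAM 1, 2 or 3 or vehicle 1, 2 or 4, and Dab2ip without PAM 1, 2 or 3 or vehicle 2, 3 or 4. Dab2ip also did not pass with the replicate block or with the length trend removed. Of 18 tested Ras, Raf and scaffold genes 3 fell: the scaffold genes Cnksr2 (-0.74 ± 0.20), Shoc2 (-0.92 ± 0.28) and Ksr1 (-1.45 ± 0.49), with groups that overlapped. Without PAM 3 and PAM 4 none of the 3 passed, at -0.47, -0.48 and -0.99. Calls were also lost without vehicle 1 for Cnksr2, without PAM 3 or vehicle 1 or 3 for Shoc2, and without PAM 3 or 4 or vehicle 1, 2 or 4, or with limma-voom, for Ksr1. Of 17 receptor adaptor and exchange factor genes, Frs3 fell (-0.64 ± 0.21), a call lost in all leave-one-out fits but that without PAM 3, without a filter on low counts and with the replicate block. DESeq2 and limma-voom each called 4 of the 17 lower, and 6 were lower and 0 higher at an unadjusted edgeR p under 0.05. Of 8 effector kinase genes the ERK target Rps6ka1 fell (-0.71 ± 0.23), a call lost without PAM 1 or 4 or any 1 vehicle library, and of 7 MAP4K genes Mink1 fell (-0.45 ± 0.10). Of 13 tested ERK-responsive transcripts 1 rose and 3 fell. Phlda1 is among both the 13 and the 3, although it was selected after its value was seen. The count is therefore partly a product of that choice and says nothing about the list. Fos had 1.09 ± 0.15, and Arc (-1.50 ± 0.19), Egr1 (-0.92 ± 0.21) and Phlda1 (-0.52 ± 0.14) were lower. Phlda1 was not called without vehicle 2 or 4. Egr1 was at -0.59 without PAM 3 and PAM 4.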

How the data were processed

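Polyadenylated RNA of 8 libraries (4 PAM, 4 vehicle, day 18 in vitro) was sequenced. For each library the authors deposited raw read counts by gene, beside the gene's exonic length, as read per the file headers. The submitters' processing notes name STAR, featureCounts, DESeq, DESeq2 and Rnor_6.0; tool versions, annotation release and strandedness were not found in the labels or headers. The deposited comparison holds, per the file headers, group means (signal values), log2 fold changes and p-values by the authors; symbols came from it. The genes and lists were chosen with earlier results of these data known.

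Counts were fitted in R 4.3.3 with edgeR 4.0.16 (filterByExpr, TMM scaling, robust quasi-likelihood F test, group as the only term) over all 11740 tested genes, with Benjamini-Hochberg adjustment and a threshold of 0.05. Standard errors were obtained from each log2 fold change and its F statistic. CPM values use TMM-scaled library sizes, and "rose", "fell" and "called" refer to this test. The common biological coefficient of variation was 17.7%. No set test was run. All called genes of the set were named, with 21 fixed ones (ERK and MEK genes, MAPK phosphatase, Sprouty and Spred genes), the 5 highest per length, and up to 3 called genes of each other list; some genes are not reported here. Within the symbol rule, 4 genes share exon bases with another annotated gene, which had 0 counts in each case. No pair of replicates agreed within sampling noise (ratio of chi-square to its degrees of freedom 2.77 to 14.8).

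Alternatives were DESeq2 1.42.0, limma-voom (limma 3.58.1), RLE and upper-quartile scaling, no filter on low counts, a minimum mean of 1 CPM, a block for replicate number, omission of each library in turn, PAM 3 and PAM 4 left out, and each library's trend with exonic length removed (loess, span 0.5). The fits were tested on simulated counts. Promoter sequences are those of a RefSeq table of build GRCr8, used for no coordinates of the counts.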

Additional observations from a re-analysis of the deposited data

Results flagged for a closer look

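In 92 groups of 4 values (each named gene in each group), 4 held a library far from the other 3 by Dixon's criterion, where chance gives about 1 in 20. Dusp5 was at 19.5 CPM in PAM 4, against 29.3 to 30.2 CPM in the other PAM libraries. Dusp1 was at 38.7 CPM in vehicle 1, against 50.8 to 52.3 CPM in the other vehicle libraries. Ptpn5 was at 201 CPM in vehicle 1, against 212 CPM in each of the others, and Ptprr at 9.08 CPM in vehicle 2, against 6.15 to 6.57 CPM. Without PAM 4 the log2 fold change of Dusp5 was -1.39.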

How the results depend on the processing

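Of the 15 called genes of the set, 6 (Dusp5, Dusp4, Dusp7, Map2k1, Rasgrf1 and Mapk8ip2) passed in all 17 alternatives. Over 763 comparisons of a named gene with an alternative, 644 kept direction and call, 105 lost the call, 12 gained one and 2 changed sign without a call: Dusp2 (0.0052 without vehicle 3; -0.69 to 0.0052 over the fits without 1 library) and Dusp6 (0.11 without PAM 3 and PAM 4). With a minimum mean of 1 CPM, and likewise in the fit without PAM 3 and PAM 4, 1 gene of the set rose, a kinase. RLE scaling left 2 kinases that fell. Without 1 library, 6 to 17 genes of the set were called (0 to 3 higher and 6 to 14 lower), 0 to 3 kinases rose and 1 to 5 fell, and 0 to 1 negative regulators rose and 3 to 6 fell. For the kinases, median log2 fold change was -0.203 to -0.0108 in those fits. The cause was not tested; such fits have fewer libraries. The labels give both groups the same replicate numbers without a stated meaning, and same-numbered libraries did not deviate together (correlations of -0.06 to 0.07, and not every library correlated best with its own number). With the replicate number as a block, 12 genes of the set were called, 1 of them higher (a kinase) and 11 lower. At this depth the 8 untested genes, with 0 to 12 counts per library, could not be assessed.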
